A study of Homo sapiens with 12 samples.

Results

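The distal end of the short arm of chromosome 5 carries genes of unrelated function that lie close together, and they are described here across parental Rh30 cells and 2 clones derived from them. The genes were chosen by position and with the array ratios in view. Every gene name with a probe on chromosome 5 (build NCBI36) from its first base to just beyond the ANKH probe read here was taken. This is a length of 4 times 3.7 Mb, and each gene was read from its brightest probe there. The choice gave 107 of the 30238 gene names on the array, from 143 probes, and 32 of the 107 are probes listed only under their own probe number. Because the same ratios led to the choice of this stretch, the values below are a description and support no test of the stretch itself.

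Rh30 is an alveolar rhabdomyosarcoma cell line that carries PAX3-FKHR, a fusion transcription factor. The cultures were untransfected Rh30 cells (WT), a clone with an shRNA against PAX3-FKHR (KD1) and a clone with a non-targeting shRNA (CON), all harvested 24 h after plating. CON and KD1 were grown in 1 μg/mL puromycin and WT without it, and each of them is a single clone. Against WT, the effects of shRNA, cloning and puromycin cannot be told apart, and between KD1 and CON neither can the knockdown and other differences of the clones. There were 2 biological replicates of each culture, giving 6 RNA extracts, and the 3 comparisons, written here as KD1/CON, KD1/WT and WT/CON ("vs" in the plots), were each hybridized as a dye-swap pair per replicate on 12 arrays. In bulk RNA, a lower level per cell and fewer cells with the transcript cannot be told apart.

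The genes of this stretch have housekeeping, developmental and tissue-restricted roles. Among them are SDHA, the flavoprotein subunit of succinate dehydrogenase, TERT, the catalytic subunit of telomerase, NSUN2, an RNA cytosine methyltransferase, and the Iroquois homeobox genes IRX1, IRX2 and IRX4, which pattern embryonic tissues. Several neighbours are arranged head to head, that is, transcribed away from each other from a shared promoter region, and in such an arrangement a single stretch of DNA serves both genes.

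Promoter sequences from RefSeq (GRCh38.p14) were matched to 30 of the 54 genes that passed the filter on low signals described below. The stretches between the starts of 3 head-to-head pairs are shown because both genes of each pair passed and had a promoter sequence, and their starts lie close together. NSUN2, MTRR and FAM173B passed but had no promoter sequence, so their divergent pairs, whose ratios are given below, could not be shown. Agreement of the ratios was not used to choose them. The genes of each of these 3 pairs differed in their mean ratio by at most 0.28 in any comparison, which does not hold for all divergent pairs described below. The stretches are written along the plus strand, and capitals mark strings found on either strand. These are the CCAAT box, the GC box GGGCGG, the string GCAGGCG of NRF-1 type sites and the string CCGGAAG of ETS type sites. The last 2 strings were added after the promoters had been read. The SDHA and CCDC127 stretch is chr5:218154-218319, that of TRIP13 and BRD9 is chr5:892802-892883, and that of C5orf38 (now IRX2-DT) and IRX2 is chr5:2751678-2751892.
CCDC127 to SDHA: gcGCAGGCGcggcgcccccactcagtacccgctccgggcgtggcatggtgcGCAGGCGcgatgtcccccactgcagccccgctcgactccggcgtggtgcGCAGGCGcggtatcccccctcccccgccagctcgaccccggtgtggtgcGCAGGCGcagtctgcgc
BRD9 to TRIP13: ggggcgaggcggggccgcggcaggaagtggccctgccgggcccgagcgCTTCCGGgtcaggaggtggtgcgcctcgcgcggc
IRX2 to C5orf38: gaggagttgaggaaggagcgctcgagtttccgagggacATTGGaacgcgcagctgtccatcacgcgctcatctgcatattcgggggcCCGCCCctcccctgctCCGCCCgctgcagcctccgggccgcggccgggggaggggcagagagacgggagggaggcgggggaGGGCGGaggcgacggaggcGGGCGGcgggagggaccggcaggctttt

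The 166 bases between CCDC127 and SDHA hold GCAGGCG 4 times, and neither GC box nor CCAAT. The 82 bases between BRD9 and TRIP13 hold 1 CCGGAAG on the minus strand, and the 215 bases between IRX2 and C5orf38 hold 4 GC boxes and 1 CCAAT. In RefSeq promoter windows of 300 bases around the start, GCAGGCG was found in 12 of 33 windows of these genes (36.4%) and in 11.8% of all 35116 windows. The GC box was found in 78.8% of theirs and 45.0% of all. PAX3 is known to bind sequences that join GTTCC, read by its paired domain, to ATTA, read by its homeodomain. Both strings were found in 12.1% of the windows of these genes and in 21.6% of all windows, and the paired-domain core GTCACGC in 3.03% and 2.52%. The paper writes the paired-domain part of the composite site as GTTC/AT/C, and of these forms only GTTCC was searched. Neither the order nor the spacing of the strings was required, so these shares do not measure the composite site. The windows of these genes were 72.7% G and C against 57.5% over all windows, and the shares of GC-rich and AT-rich strings move with that composition. A match is not evidence of binding.

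Ratios are log2 of the first culture over the second, so 1 is a doubling. A probe passed the filter where on each of the 12 arrays 1 or both of its channels, after background subtraction, were brighter than 99% of the 153 negative controls. Each culture is absent from 4 arrays, so a transcript found in a single culture could not pass. Of the 107 genes, 54 passed (43 with a gene name and 11 without), as did 15707 of the 30238 in all, and each of the 54 was also well above background in every channel of every array. Muscle lineage markers of rhabdomyosarcoma (MYOD1, MYOG, DES, CHRNA1, CDH15 and FGFR4) were well above background in all 8 channels of each culture. Of the markers of other cells, PTPRC and ALB were well above background in 0 channels, EPCAM in 4 channels of WT alone, and PECAM1 in all 8 of each culture. The brightest probes of PAX3 (A_23_P502706) and FOXO1 (A_23_P151426) read the unrearranged genes, and whether they also read the fusion transcript was not checked. Their log2 ratios of KD1 to the other cultures lay between −0.26 and −0.79 over both replicates, with limma adjusted p between 0.286 and 0.420. The 4 WT/CON arrays shared 1 slide, and each replicate of KD1 had its arrays on another, so slide and replicate cannot be told apart in the KD1 comparisons.

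The median level of the expressed genes of distal 5p was highest in KD1, intermediate in WT and lowest in CON in both replicates, and 21 of the 54 genes had this order in both. The median log2 ratio of the 54 genes was 0.74 in KD1/CON, with medians of 0.85 and 0.61 in replicates 1 and 2. It was 0.38 in KD1/WT (0.49 and 0.26) and 0.27 in WT/CON (0.15 and 0.31). Over all 15707 genes that passed, the corresponding medians were −0.01, 0.01 and −0.03. The 3 comparisons share extracts in pairs and are therefore not independent of each other.

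The size of the difference varied widely from gene to gene. For KD1/CON, the middle 50% of the 54 genes lay between 0.06 and 1.14, and 16 genes were at least 2-fold higher in KD1, a size that 2.10% of all genes reached. In KD1/WT 8 genes were at least 2-fold higher in KD1 (2.13% of all genes), and in WT/CON 2 genes, LPCAT1 and ANKH, were at least 2-fold higher in WT (2.12%). KD1 was above CON on all 4 arrays for 37 of the 54 genes, where 25% of all genes were. It was above WT on all 4 arrays for 21 (17.1% of all genes), and WT was above CON on all 4 for 24 (21.2% of all genes).

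**Figure D1:**
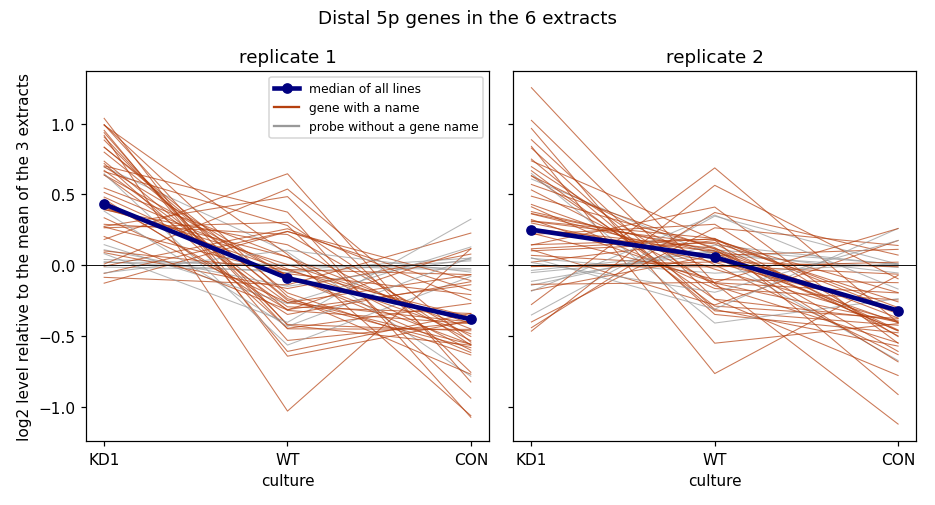
Log2 level of each of the 54 distal 5p genes in KD1, WT and CON, relative to the mean of the 3 extracts, in replicate 1 (left) and replicate 2 (right); each thin line is a gene and the thick line is their median. The median fell from 0.43 in KD1 to −0.09 in WT and −0.38 in CON in replicate 1, and from 0.25 to 0.06 and −0.32 in replicate 2.

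When the 3 direct ratios of each replicate were solved for the levels of its extracts, the order KD1 > WT > CON was the commonest of the 6 possible orders. It was found in 28 of the 54 genes in replicate 1, in 27 in replicate 2 and in 21 in both (38.9%), where 3.6% of all genes had it in both replicates. Of the 21 genes, 20 have a gene name, among them SDHA, PDCD6, EXOC3, CEP72, BRD9, SLC12A7, CLPTM1L, NDUFS6, IRX2, MED10, NSUN2, FASTKD3, MTRR and ANKH. The next commonest order in both replicates was WT > KD1 > CON, in 3 genes (5.56%), near the 4.67% of all genes. No gene had the order CON > WT > KD1 in both, which only 4.65% of all genes had. The 3 direct ratios closed well, as KD1/CON differed from the sum of KD1/WT and WT/CON by a median of 0.07 in size in each replicate over these genes. The median WT level over the 54 genes was below the mean of the extracts in replicate 1 and above it in replicate 2, as the lines by culture show, while those of KD1 and CON kept their side.

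By limma with Benjamini-Hochberg adjustment over all probes that passed, 5 of the 54 genes were called higher in KD1 than in CON (ZDHHC11, CLPTM1L, C5orf38, ANKH and the probe A_32_P226700), where 0.299% of all genes were called in this direction, and 0 were called lower (0.452% of all genes). In KD1/WT 1 gene was called higher in KD1 (C5orf55, 0.0637% of all genes) and 0 lower (0.274%), and in WT/CON 0 were called in either direction (0.121% and 0.0828%). At an unadjusted p under 0.05, limma gave 32 genes higher and 0 lower in KD1/CON (8.19% and 8.82% of all genes), 23 higher and 2 lower in KD1/WT (8.59% and 8.84%), and 14 higher and 2 lower in WT/CON (8.74% and 9.09%). As these ratios were used to choose the stretch, nothing is read from the counts. They also depended on the processing: under the alternatives, the count of genes called higher or lower in KD1/CON lay between 0 and 20, and that in KD1/WT between 0 and 11.

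Along the stretch, KD1 stood well above CON over the first 3 of 4 segments, but the place of WT between them shifted. The segments were of equal length and met at 3.7, 7.4 and 11.1 Mb. In segment 1, the most distal, with 31 genes, the median was 0.89 in KD1/CON, 0.72 in KD1/WT and 0.14 in WT/CON, so that WT lay near CON. Over its 23 named genes the medians were 1.12, 0.86 and 0.20. Segments 2 and 3 hold named genes only. In segment 2, with 6 genes, the medians were 0.71, 0.31 and 0.42, and in segment 3, with 9 genes, they were 0.73, 0.24 and 0.52, so that WT lay nearer to KD1. In both replicates the median of WT/CON was higher in segments 2 and 3 than in segment 1, with 0.04 and 0.17 in segment 1, 0.38 and 0.44 in segment 2, and 0.45 and 0.44 in segment 3. Replicate medians of KD1/WT were 0.76 and 0.49 in segment 1, 0.44 and 0.22 in segment 2, and 0.35 and 0.14 in segment 3, so that in replicate 1 WT was still nearer to CON in segment 2.

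In segment 4, with 8 genes, the medians were 0.29, 0.23 and 0.13, and the replicates of WT/CON were −0.05 and 0.52. That segment holds 3 probes without a gene name, and the median over its 5 named genes was 0.63 in KD1/CON, 0.23 in KD1/WT and 0.67 in WT/CON. Beyond the limit the difference became smaller and then reversed. The 8 genes that passed from there to 30 Mb had a median of 0.31 in KD1/CON, the 45 genes between 30 and 40 Mb −0.30, and the 25 genes between 40 and 47 Mb −0.61. In the same order the medians of WT/CON were 0.16, −0.35 and −0.57, and those of KD1/WT 0.20, 0.13 and −0.05. By the median level, CON was the highest culture over the rest of the short arm (0.24 in each replicate) and the lowest over its distal end.

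**Figure D2:**
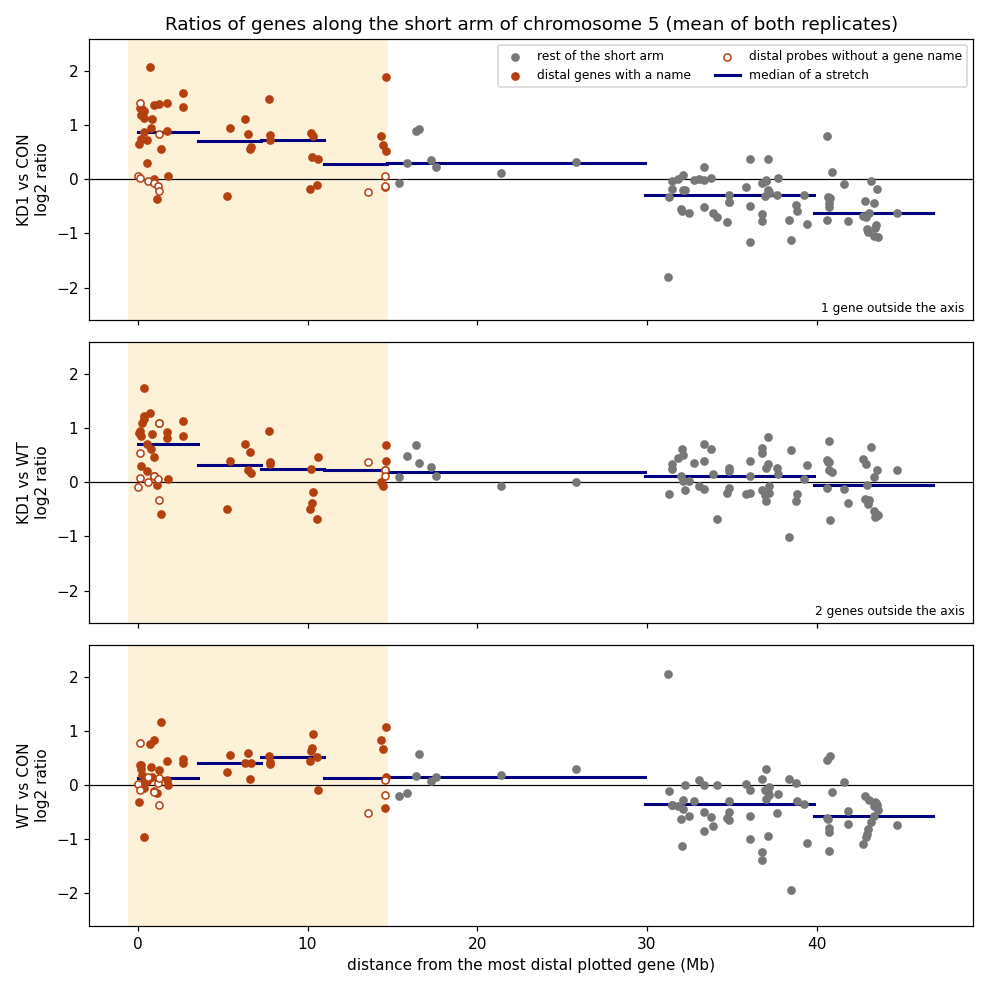
Log2 ratio (mean of both replicates) of each gene that passed the filter, against its distance in Mb from the most distal plotted gene, for KD1/CON (top), KD1/WT (middle) and WT/CON (bottom); the shaded area is the distal stretch, open circles are distal probes without a gene name and bars are medians of stretches. In KD1/CON the bars stand at 0.89, 0.71, 0.73 and 0.29 in the shaded segments and at −0.30 and −0.61 in the last stretches; 1 gene in the top and 2 in the middle plot lie outside the axis.

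At the limit, the last gene read inside was ANKH (probe at 14769858 to 14769917), with replicate ratios of 1.99 and 1.79 in KD1/CON. The nearest outside were the probe A_24_P264416 (15504115), with 0.07 and −0.21, and FBXL7 (15992565), with 0.38 and 0.22. Further on, ZNF622 (16506251), with 0.69 and 1.1, and MYO10 (16718680), with 0.85 and 1.01, were as high as genes inside, so the ratios give no sharp end at the chosen limit.

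The genes of mitochondrial proteins were all expressed, and all 5 were higher in KD1 than in CON in both replicates, with a median of 1.18. Such a difference in both replicates was found for 39 of the 54 genes and for 34.3% of all genes. NDUFS6, an accessory subunit of respiratory complex I (1855479 to 1867502), had 1.60 and 1.23 in KD1/CON, 1.38 and 0.48 in KD1/WT, and 0.10 and 0.82 in WT/CON. SDHA (304151 to 304210) had 1.33 and 1.04, 0.76 and 0.96, and 0.53 and 0.09 in the same order. Its second probe had means of 0.96, 0.72 and 0.22, and as the genome holds near-identical copies of SDHA, the share of signal from them is uncertain. CCDC127, its head-to-head neighbour, had 1.18 and 1.47, 0.73 and 1.19, and 0.50 and 0.25. KD1 was above both other cultures on every array for these 3 genes. MRPL36, of the large subunit of the mitochondrial ribosome, had 1.03 and 0.78 in KD1/CON and 1.13 and 0.51 in KD1/WT, but −0.21 and 0.42 in WT/CON. FASTKD3, which acts on mitochondrial RNA, had 0.83 and 0.62, 0.61 and 0.15, and 0.29 and 0.50.

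Among genes of telomeres, mitosis and chromatin, 3 of 4 passed. TRIP13, an ATPase of the spindle checkpoint, had 1.5 and 0.74 in KD1/CON, but its replicates were far apart in KD1/WT (1.61 and 0.19) and on opposite sides of 0 in WT/CON (−0.32 and 0.64). BRD9, a subunit of a chromatin remodelling complex that is transcribed away from TRIP13, had 1.07 and 0.84, 0.94 and 0.29, and 0.14 and 0.55. CEP72, a centrosomal protein, had 0.97 and 0.48, 0.94 and 0.49, and 0.06 and 0.11. TERT was well above background in all channels but below the negative control limit on some arrays, and did not pass. It had −0.02 and −0.13 in KD1/CON, 0.30 and −0.08 in KD1/WT, and −0.37 and −0.01 in WT/CON. In no comparison were both of its replicates above 0.

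The Iroquois genes differed from each other. IRX2 (2799336 to 2799395) had 1.42 and 1.27 in KD1/CON, 1.08 and 0.62 in KD1/WT, and 0.33 and 0.63 in WT/CON, and was higher in the first culture on all 4 arrays of each comparison. The divergent transcript C5orf38 (now IRX2-DT) had 1.43 and 1.77, 0.96 and 1.30, and 0.25 and 0.57. IRX4 was dim and near 0, with 0.24 and −0.10, 0.06 and 0.08, and −0.04 and 0.04. IRX1 did not pass, and had 0.06 and −0.59 in KD1/CON. AHRR, a repressor of the aryl hydrocarbon receptor, did not pass either; it had 0.86 and 2.26 in KD1/CON and was well above background in 6 channels of KD1, 0 of WT and 1 of CON.

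The genes listed under RNA, translation and folding were MED10, NSUN2, CCT5, POLS and, although its enzyme belongs to methionine metabolism, MTRR. All 5 passed, with a median of 0.83 in KD1/CON, 0.24 in KD1/WT and 0.43 in WT/CON. MED10, a subunit of the Mediator complex of transcription, had 1.15 and 1.08 in KD1/CON, 1.05 and 0.38 in KD1/WT, and 0.09 and 0.75 in WT/CON. NSUN2 had 0.86 and 0.81, 0.33 and 0.13, and 0.50 and 0.69. CCT5, a subunit of the cytosolic chaperonin, had 1.01 and 0.70, 0.53 and −0.05, and 0.45 and 0.82. KD1 and WT were not separated for CCT5, whose replicates lay on both sides of 0. MTRR, which keeps methionine synthase active, had 0.78 and 0.85, 0.43 and 0.25, and 0.32 and 0.55, and POLS (now TENT4A), a poly(A) polymerase, had 0.83 and 0.36, 0.40 and −0.06, and 0.41 and 0.42. In this group WT was above CON in both replicates of all 5 genes, as it was for 31 of the 54 genes and for 27.9% of all genes. All 5 lie in segments 2 and 3, where this held for 5 of 6 and 7 of 9 genes.

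Of the 9 genes of transporters and membrane proteins 6 passed, with a median of 1.39 in KD1/CON. CLPTM1L (1371412 to 1371471), a membrane protein whose gene adjoins TERT, had 1.5 and 1.29 in KD1/CON, 1.00 and 1.19 in KD1/WT, and 0.41 and 0.15 in WT/CON. SLC12A7, a potassium and chloride cotransporter and the second brightest of the 54, had 1.79 and 0.96, 0.31 and 0.63, and 1.43 and 0.25. Its other probes had means of 1.35 and 1.57 in KD1/CON. ZDHHC11, of the palmitoyltransferase family, had the highest mean of the 54 in KD1/CON, with 1.79 and 2.37, 1.19 and 1.39, and 0.52 and 1.00. Both of its probes gave such values, but the genome holds a close copy, ZDHHC11B, from which it may not be separated. SLC6A3 and SLC6A18, transporters of dopamine and of amino acids with expression in few tissues, did not pass.

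**Figure D3:**
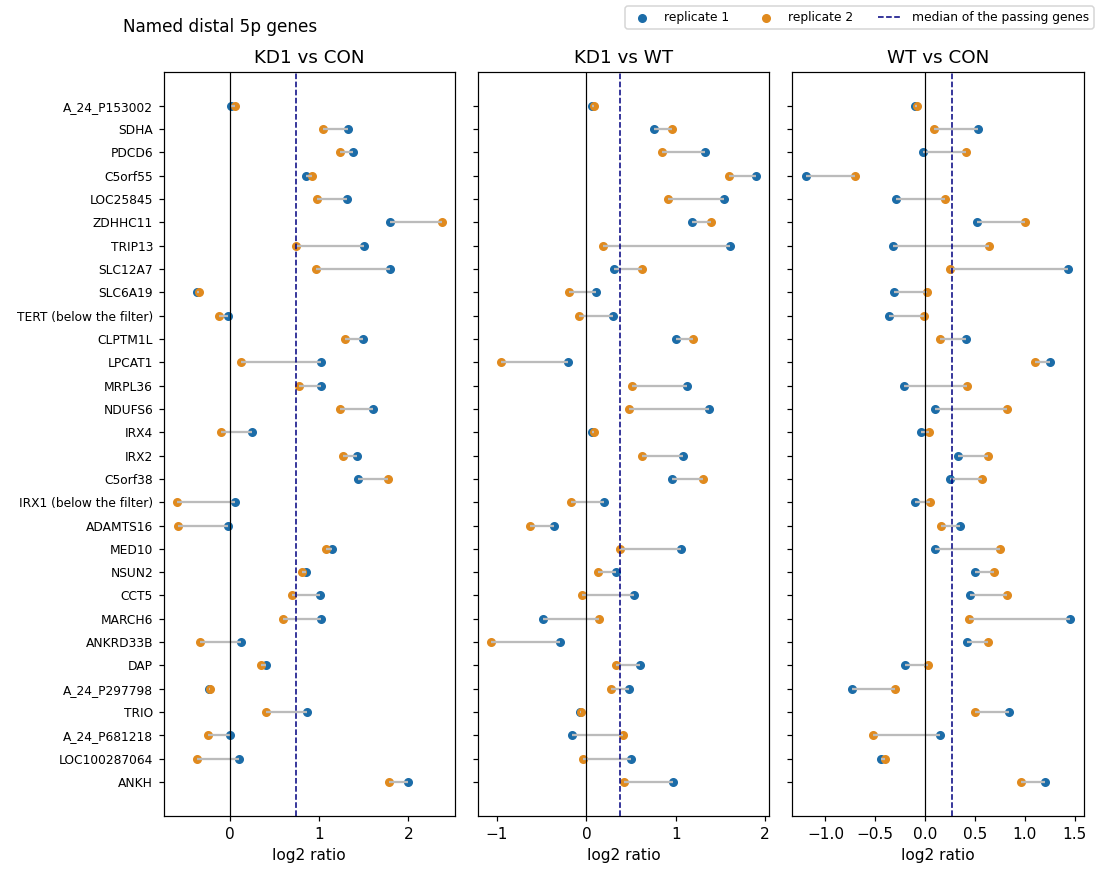
Log2 ratios of the 30 named genes and probes, from the most distal (top) to the most proximal (bottom), in the 3 comparisons; points are the replicates and the dashed lines are the medians of the 54 genes that passed (0.74, 0.38 and 0.27). Most genes lie right of 0 in KD1/CON, and in WT/CON the replicates of several distal genes, such as TRIP13 and MRPL36, lie on both sides of 0.

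In signalling and cell death, PDCD6, a calcium-binding protein, had 1.38 and 1.24 in KD1/CON, 1.33 and 0.85 in KD1/WT, and −0.02 and 0.41 in WT/CON. ADCY2, an adenylyl cyclase, had 1.63 and 1.36, 0.35 and 1.54, and 1.19 and −0.12, so that its ratios to WT differed more between replicates than that of the clones. DAP, death-associated protein, had a smaller ratio of 0.40 and 0.35, with 0.60 and 0.33 in KD1/WT and −0.20 and 0.03 in WT/CON. NKD2, a negative regulator of Wnt signalling, was at −0.02 and 0.03 in KD1/CON. EXOC3, which tethers secretory vesicles, had 1.35 and 1.19, 1.30 and 1.06, and 0.04 and 0.09. Its second probe lies at 524788 beside a probe of LOC25845 (now SLC9A3-OT1) at 524778, and had means of 1.52, 0.85 and 0.62. TRIO, a guanine nucleotide exchange factor, had 0.86 and 0.40, −0.07 and −0.06, and 0.84 and 0.50, with KD1 and WT at nearly the same level. Of the adhesion, cytoskeleton and cilia genes only EXOC3 and TRIO passed, of 7 listed.

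Several genes stood off the shared shift. The farthest above the median in KD1/CON were ZDHHC11, ANKH and C5orf38. ANKH, which exports pyrophosphate and limits mineralization, had 1.99 and 1.79 in KD1/CON, 0.97 and 0.42 in KD1/WT, and 1.20 and 0.96 in WT/CON. Both ANKH probes were dim (mean log2 signals 6.59 and 6.31), and the KD1/WT arrays of the brighter one ranged from −0.15 to 1.14. Its second probe had a mean of 2.36 in KD1/CON and 2.05 in WT/CON, so both probes were high in WT and KD1 although they differed by 0.98 in the latter comparison.

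C5orf55, listed by RefSeq as EXOC3-AS1, had the usual ratio in KD1/CON (0.85 and 0.92) but was the highest of all in KD1/WT (1.90 and 1.60) and the lowest in WT/CON (−1.20 and −0.70). It was lower in WT than in CON on all 4 arrays, while the neighbouring EXOC3 had 0.04 and 0.09 there. Next in KD1/WT were ZDHHC11 and LOC25845, the latter with 1.54 and 0.92. The opposite pattern was found in LPCAT1, an acyltransferase of phosphatidylcholine synthesis, which was highest in WT. It had 1.02 and 0.12 in KD1/CON, −0.20 and −0.96 in KD1/WT, and 1.25 and 1.1 in WT/CON. The second, dimmer LPCAT1 probe had smaller means of 0.17, −0.25 and 0.57 in the same order, with 0.54 and −0.21 in KD1/CON. By that probe LPCAT1 was not 2-fold higher in WT than in CON. MARCH6, an endoplasmic reticulum ubiquitin ligase, had 1.02 and 0.59, −0.48 and 0.14, and 1.45 and 0.44. Its second probe had −0.08 and 0.76 in KD1/WT, with a mean of 0.34 against −0.17, so the direction of that ratio depended on the probe.

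Below the shared shift in KD1/CON were SLC6A19, an amino acid transporter of gut and kidney, with −0.37 and −0.35, ADAMTS16, an extracellular protease, with −0.02 and −0.58, and the probe A_24_P297798, with −0.24 and −0.22. SLC6A19 was dim (mean log2 signal 6.80). Its single KD1/CON arrays ranged from −0.86 to 0.16, with 2 above 0, so its direction was not steady. ANKRD33B (10710025) had 0.12 and −0.34 in KD1/CON and was the lowest in KD1/WT, with −0.30 and −1.06, and ADAMTS16 was next but one with −0.36 and −0.63. The second, dimmer ANKRD33B probe did not share this, with 0.17 and −0.01 in KD1/WT, and the difference of 0.76 between its probes was the largest of the 16 genes in this comparison. In WT/CON, the lowest beside C5orf55 were A_24_P297798, with −0.74 and −0.30, and LOC100287064, with −0.45 and −0.40. LPCAT1 and ADAMTS16 belong to the lipid, steroid and extracellular genes, of which SRD5A1, a steroid reductase, had 0.55 and 0.57 in KD1/CON.

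The ratios of divergent neighbours were compared pair by pair. In KD1/CON the mean of SDHA less that of CCDC127 was −0.14, that of TRIP13 less BRD9 was 0.16, that of C5orf38 less IRX2 was 0.26, and that of NDUFS6 less MRPL36, whose starts are 1569 bases apart, was 0.51. In KD1/WT these differences were −0.10, 0.28, 0.28 and 0.11, and in WT/CON they were −0.06, −0.18, −0.07 and 0.36. NSUN2 and SRD5A1, another divergent pair, had means of 0.83 and 0.56 in KD1/CON, but 0.23 and 0.57 in KD1/WT and 0.59 and 0.12 in WT/CON. MTRR and FASTKD3 had 0.81 and 0.73 in KD1/CON, 0.34 and 0.38 in KD1/WT, and 0.43 and 0.40 in WT/CON. FAM173B (now ATPSCKMT), a methyltransferase divergent from CCT5, had 0.21 and −0.58 in KD1/CON and −0.24 and −0.75 in KD1/WT, where CCT5 had 1.01 and 0.70, and 0.53 and −0.05. In WT/CON the pair had means of 0.45 and 0.63. The second FAM173B probe had a mean of −0.06 in KD1/CON.

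The bright genes gave the clearest shift. When the 54 genes were divided by mean log2 signal into 3 classes of 18, the median in KD1/CON was 0.19 in the dim class, 0.86 in the middle class and 0.88 in the bright class. The dim class also held 5 of the 11 probes without a gene name. Such probes lay near 0 as a group, with a median of −0.03 in KD1/CON against 0.81 for the 43 named genes. The brightest of all, A_24_P681218, had −0.0025 and −0.25 in KD1/CON, and A_24_P153002 had 0.01 and 0.06. However, A_32_P226700, which lies between A_24_P153002 and CCDC127, had 1.5 and 1.33, and A_24_P598919, between CLPTM1L and LPCAT1, had 0.77 and 0.91. Of the genes that passed, 16 were read by more than 1 probe that passed, and the means of their probes spanned a median of 0.18 in KD1/CON, 0.22 in KD1/WT and 0.20 in WT/CON.

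The 53 genes that did not pass had medians of −0.02, 0.10 and −0.01 in KD1/CON, KD1/WT and WT/CON. Of these, 24 were well above background in none of the 24 channels, and 21 were probes without a gene name. Only SLC6A18, TERT, UNQ1870 and FAM105A (now OTULINL) were well above background in all 24. FAM105A had 1.12 and 1.49 in KD1/CON, and its neighbour FAM105B (now OTULIN), a deubiquitinase of linear chains that passed, had 0.60 and 0.44. CTNND2 and SEMA5A, which act in neurons, and the cilia gene DNAH5 did not pass either.

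The partners of these proteins that are encoded elsewhere had ratios near 0 in the median. Of 6 protein complexes with a subunit from distal 5p, 46 other subunits were listed, 2 of them on chromosome 5 outside the stretch, and all 46 passed the filter. Their median was 0.02 in KD1/CON, −0.02 in KD1/WT and −0.02 in WT/CON. Limma called 0 of the 46 in each comparison at an adjusted p under 0.05. Of all genes, 0.299% were called higher and 0.452% lower in KD1/CON, 0.0637% and 0.274% in KD1/WT, and 0.121% and 0.0828% in WT/CON. With shares this low, nothing is read from the 0. At an unadjusted p under 0.05 limma gave 7, 4 and 8 of the 46 in the same order, where 17%, 17.4% and 17.8% of all genes passed. Every alternative fit called 0 as well, with no share computed beside it. In KD1/CON each of the 6 distal subunits was above all of its listed partners. The stretch was chosen with these ratios in view and the partners were not, so this contrast is a description and not a test. SDHA had a mean of 1.18 there, against −0.37 to 0.07 for SDHB, SDHC and SDHD. NDUFS6 had 1.42, against −0.43 to 0.24 for 9 other complex I subunits, and EXOC3 had 1.27, against −0.04 to 0.43 for 7 other exocyst subunits.

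CCT5 had 0.86 in KD1/CON, against −0.07 to 0.32 for the other 7 chaperonin subunits, MED10 had 1.11, against −0.62 to 0.54 for 12 Mediator subunits, and MRPL36 had 0.90, against −0.56 to 0.45 for 8 ribosomal proteins. In WT/CON SDHA, CCT5, NDUFS6 and MED10 were again above all of their partners, but 4 of 7 exocyst partners were at or above EXOC3 (0.06) and 2 of 8 ribosomal partners at or above MRPL36. The second EXOC3 probe, at 0.62, was above all 7 exocyst partners, of which the highest had 0.36. The second, dimmer CCT5 probe had 0.53 in WT/CON, below the partner CCT4 (0.57), so the place of CCT5 there depended on the probe. In KD1/CON that probe had 0.43, above all 7 chaperonin partners. The chaperonin partners themselves had a median of 0.24 in WT/CON. The outlying partner was MED18, with −1.25 and −3.86 in WT/CON and 0.80 and 3.81 in KD1/WT.

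**Figure D4:**
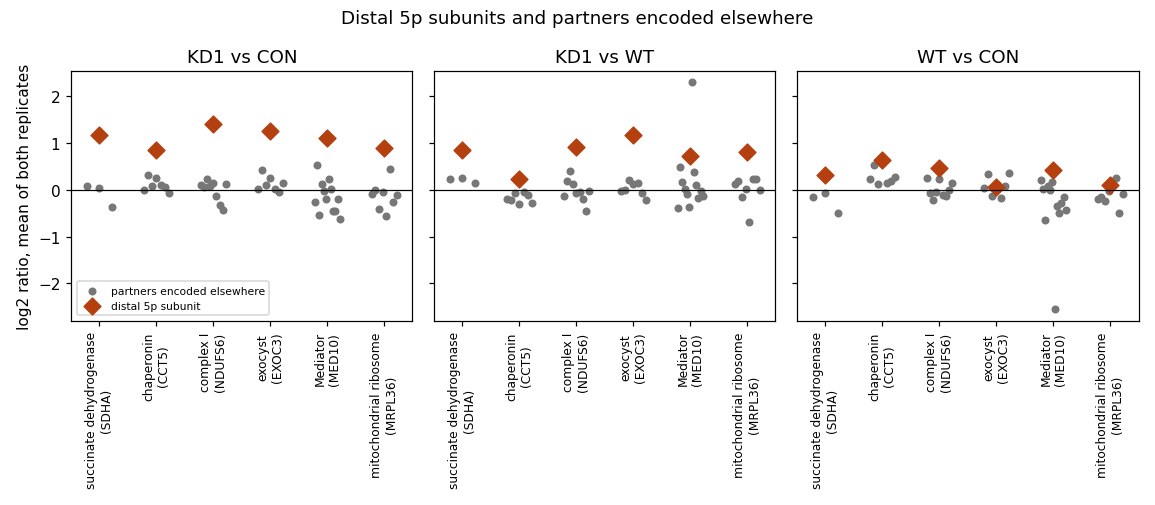
Mean log2 ratio of both replicates for 6 distal 5p subunits (diamonds) and the listed partners of the same complex encoded elsewhere (circles), in KD1/CON, KD1/WT and WT/CON. In KD1/CON the diamonds stand between 0.86 and 1.42 and the circles between −0.62 and 0.54.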

How the data were processed

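The authors extracted the scans with Agilent Feature Extraction 10.5.1.1 (submitters' processing notes) and deposited linear intensity values per spot, background-subtracted and lowess-normalized within the array, and their log10 ratio. The deposited series table holds the same ratios as log2 values, already turned for the dye swap, and was used as an alternative; 0 of its columns were left without an array. Positions given for genes are those of the probes read (NCBI36), not the limits of the genes.

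Log2 ratios of the processed signals were turned by the labelled dyes, averaged over spots without outlier flags and over each dye-swap pair. Limma 3.58.1 in R 4.3.3 was fitted to 6 extract levels per probe, solved from the 3 direct ratios of a replicate, with culture and replicate as terms (residual degrees of freedom 2); p-values were adjusted by Benjamini-Hochberg over 21871 probes, with a threshold of 0.05. Each array pairs extracts of the same number, hence the block. The fit was run on simulated data with independent noise in each level and log2 shifts of 2 in KD1 alone. That simulation held no shared arrays or slides, and most shifts here are smaller, so it does not show how reliable the calls here are. Cultures were not said to be separate beyond the label of biological replicate, and 12 arrays limit the precision; the median share of gene spots well above background was 71.9% in Cy3 and 66.2% in Cy5. Genes listed by role, complex partners and named genes (the 12 brightest, 11 fixed names, and the 3 farthest above and below the median in each comparison), with further genes named from the role lists, were chosen with earlier results of these data known. Of the 107 genes, 56 have a current RefSeq name and 44 a promoter in the table used. Alternatives were normexp with an offset of 50 and loess, median centring of floored signals, the series table, all probes of a gene, other filters, separate channels, direct ratios, slide dye effects and each replicate left out; the restriction to named genes was chosen after seeing the data. Python 3.11.15 with numpy 2.4.6, pandas 2.3.3 and matplotlib 3.10.9 was used.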

Additional observations from a re-analysis of the deposited data

How the results depend on the processing

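The medians of the distal 5p genes kept their direction in all 3 comparisons under every alternative run for them; direct ratios and slide dye effects were run for calls only. In KD1/CON the median was 0.54 with normexp and loess, and without the filter on low signals the medians were 0.30 in KD1/CON, 0.17 in KD1/WT and 0.11 in WT/CON, as the genes at background were then included. With a replicate left out the median of WT/CON lay between 0.15 and 0.31. Separate-channel levels, with no replicate block, gave medians of 0.76 in KD1/CON, 0.37 in KD1/WT and 0.29 in WT/CON. The number of genes in the order KD1 > WT > CON in both replicates was between 17 and 23 under the alternatives, against 21. Counts of limma calls were less steady. In KD1/CON, against 5 genes, there were 0 with normexp and loess, 0 with median centring, 1 without the filter, 2 with genes well above background on all 12 arrays, 9 with separate channels and no replicate block, 10 with direct ratios and 20 with slide dye effects. In KD1/WT, against 1 gene, there were 0 under each of the first 4 of these settings, 1 with no replicate block, 2 with direct ratios and 11 with slide dye effects, and in WT/CON 3 with slide dye effects against 0. The cause was not tested. Shares of all genes called were computed for the main fit only. The counts under the alternatives therefore have no share beside them, and nothing is read from them. The deviations of same-numbered extracts correlated with 0.54 for CON and KD1, but with −0.02 for CON and WT and −0.07 for WT and KD1, so the numbers were not taken to pair the extracts beyond their shared arrays. Calls with a replicate left out were not run, as no residual degrees of freedom remain.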
